A study of Mus musculus with 2 samples.

Results

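Fat tissue keeps a pool of stromal progenitor cells from which new adipocytes form, and 10 genes that mark the stages of that pool were followed here in cells from gonadal fat after pelvic irradiation. The genes were taken by symbol from the deposited table of 24091 genes, and all 10 were found in it. By stage, 4 are markers of interstitial progenitors (Pi16, Dpp4, Anxa3, and Cd55), 2 are markers of committed cells (Icam1 and F3), and 4 are shared by progenitors of both kinds (Ly6a, Pdgfra, Pdgfrb, and Cd34).

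The series holds 2 RNA sequencing libraries from C57BL/6 mice, 1 from sham-irradiated animals and 1 from animals given pelvic radiation, which the labels state as 7.5 Gy and 5 days without saying whether the dose is daily or total. In both, gonadal fat was taken 2 months later and digested with collagenase, and the cells of the floating layer were cultured for 3 days. Both sample titles also name PBS, without saying what it was given for, and the number, sex, and age of the mice do not appear in the labels. Each condition has 1 library, so no difference below has a replicate check and no p-value was computed.

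In fat, interstitial progenitors lie in the connective tissue around the lobules and are known for high PI16 and DPP4, and they give rise to committed preadipocytes marked by ICAM1. Another group carries tissue factor, the product of F3 (also named CD142), and has been described as regulating adipogenesis, and F3 is counted here with the committed markers. The platelet-derived growth factor (PDGF) receptors, CD34, and LY6A (also named SCA-1) are widely used to sort fat progenitors as a whole.

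Depth, recovered from the values themselves, came to 30600000 fragments for sham and 35000000 for irradiated cells, with 86.8% and 86.9% on listed genes. Levels are FPKM, the fragments of a gene divided by its length in kilobases and by the library total in units of 1000000, so they can be compared between genes. A difference is the deposited log2(FPKM + 0.1) of the irradiated library minus that of the sham library. The interval beside it bounds the log2 ratio of fragments at 95% by the exact Clopper-Pearson method, and covers counting error only and not the spread between mice or cultures. Among the 11253 genes that reached an FPKM of 1 in either library, the median difference was 0.02. The labels call the material primary adipocytes, but all 10 mature adipocyte markers examined stayed below an FPKM of 1 in sham and irradiated cells alike, with sums of 2.93 and 3.83. The 10 progenitor genes together reached sums of 479.4 and 474.9.

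None of the 10 genes was higher or lower by 1 or more on the log2 scale, a size reached upward by 0.791% and downward by 0.373% of the 11253 genes. At a difference of 0.5, Cd55 and Icam1 were higher in the irradiated library and Pi16 was lower, against 4.31% of all genes upward and 1.44% downward. The counting interval lay above 0 for 5 members and below 0 for 4, where 23.8% and 17.5% of all genes did so. Whether an interval leaves out 0 depends on the number of fragments as well as on the size of the difference. Pdgfrb, with 15473 and 16867 fragments, had an interval below 0 at a difference of only -0.07. The shares of all genes were not matched for level, so these counts do not show that the members differed more than other genes. The median difference of the 10 members was 0.11. The markers did not move as a block, since 6 were higher in the irradiated library and 4 were lower. In bulk RNA, fewer cells of a type and less RNA per cell cannot be told apart. All 10 passed the filter on low values, Dpp4 through the irradiated library alone.

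**Figure D1:**
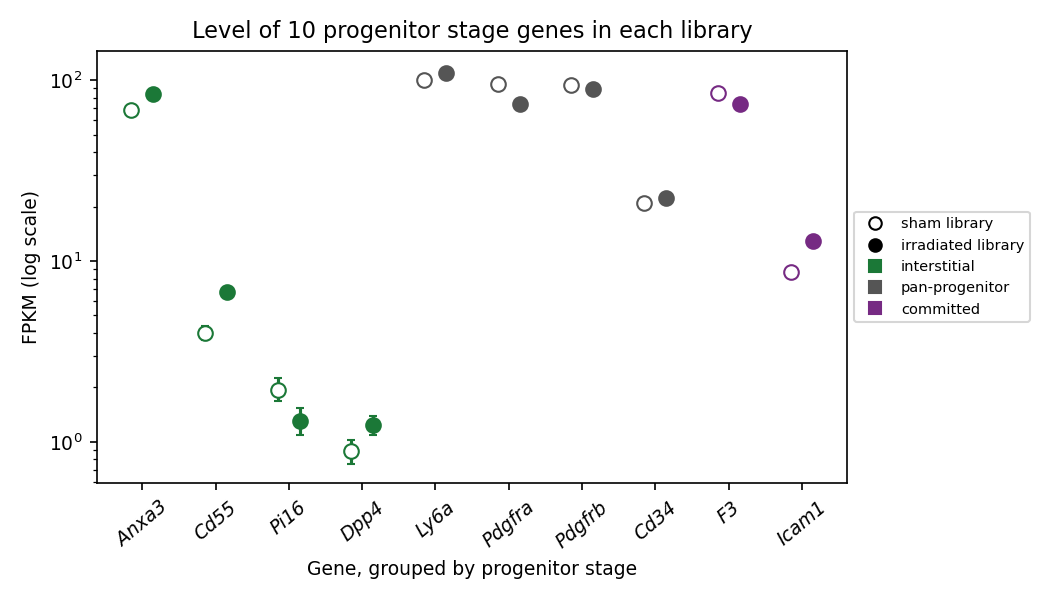
FPKM (log axis) of each of the 10 genes in the sham library (open circles) and the irradiated library (filled circles), coloured by stage, with exact 95% Poisson intervals that cover counting error only. Ly6a, Pdgfra, Pdgfrb, F3, and Anxa3 lie between 68.5 and 109.8 in both libraries, while Pi16 and Dpp4 lie between 0.886 and 1.94.

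The interstitial markers differed most among themselves. Cd55 encodes decay-accelerating factor, a membrane protein that shields cells from complement, and lies on chromosome 1 from 130439026 to 130462744 (mm10, minus strand). Its FPKM was 4.01 in the sham library and 6.72 in the irradiated library, on 537 and 1030 fragments. This was the largest upward difference of the 10 genes, 0.73 (interval of the ratio 0.59 to 0.90), and 1.88% of all genes had a larger one. Of the 50-base words in the longest coding transcript of Cd55, 13.3% also occur in its neighbour copy Cd55b. No fragment was listed for Cd55b in either library, which allows an FPKM of up to 0.0722 and 0.0631, and the labels do not say how the counting treated fragments that match both copies.

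Pi16, which encodes a secreted peptidase inhibitor of the CAP family and marks the earliest interstitial cells, went the other way. It lies on chromosome 17 from 29318882 to 29329099 (plus strand) and had an FPKM of 1.94 in the sham library and 1.29 in the irradiated library. The difference was -0.55 (interval -0.92 to -0.25) on 177 and 135 fragments, and 1.14% of all genes had a lower one. Pi16 was the member with the fewest fragments in the irradiated library and had the widest interval of the 10 genes.

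Dpp4 encodes a dipeptidyl peptidase of the cell surface that cleaves incretins and chemokines, and its product is the antigen used to sort interstitial progenitors. It lies on chromosome 2 from 62330073 to 62412231 (minus strand) and had the lowest level of the 10 genes, an FPKM of 0.886 in the sham library and 1.24 in the irradiated library. The difference was 0.44 (interval 0.21 to 0.77), so the sorting marker was higher where Pi16 was lower. With log2(FPKM + 1), which shrinks low genes more, the differences were 0.25 for Dpp4 and -0.36 for Pi16. The table also lists Mir684-1 on the opposite strand within this gene, with 32 and 29 fragments against 173 and 277 for Dpp4. The labels do not say whether the counting used strand.

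Anxa3 encodes annexin A3, a calcium-dependent phospholipid-binding protein, and lies on chromosome 5 from 96793385 to 96845968 (plus strand). It stood far above the other interstitial markers, with an FPKM of 68.5 in the sham library and 83.8 in the irradiated library. Its difference was 0.29 (interval 0.24 to 0.34), on 5414 and 7577 fragments. Anxa3 made up most of the summed FPKM of the interstitial markers, which was 75.3 in the sham library and 93.02 in the irradiated library.

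Between them, the committed markers also split. Icam1 encodes an adhesion receptor for leukocyte integrins and lies on chromosome 9 from 21015960 to 21028796 (plus strand). Its FPKM was 8.72 in the sham library and 12.9 in the irradiated library, a difference of 0.56 (interval 0.46 to 0.67), and 3.23% of all genes had a larger one. F3 encodes tissue factor, the cell-surface starter of blood coagulation, and lies on chromosome 3 from 121723537 to 121735052 (plus strand). It was lower in the irradiated library, with an FPKM of 84.9 against 73.9 and a difference of -0.20 (interval -0.26 to -0.14).

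Among the shared progenitor markers, Ly6a and Cd34 had small differences. Ly6a, on chromosome 15 from 74994877 to 74998031 (minus strand), had the highest level of the 10 genes in both libraries, an FPKM of 100.3 and 109.8. Its difference was 0.13 (interval 0.06 to 0.20). In its longest coding transcript, 10.04% of 50-base words are shared with 4 other genes, the largest share, 4.42%, with Ly6c1. Cd34, the sialomucin of progenitor and endothelial surfaces on chromosome 1 from 194938821 to 194961292 (plus strand), had an FPKM of 20.9 and 22.2. Its difference of 0.09 was the only one of the 10 whose interval, -0.0038 to 0.18, covered 0, so no difference was detectable for it at this depth.

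The PDGF receptors, tyrosine kinases through which PDGF drives the growth of mesenchymal cells, had almost the same level in the sham library. Pdgfra lies on chromosome 5 from 75152291 to 75198204, and its FPKM was 95.6 there and 73.9 in the irradiated library. Its difference of -0.37 (interval -0.40 to -0.34) rests on 26126 and 23127 fragments, the most of the 10 genes, and 2.51% of all genes had a lower one. Pdgfrb lies on chromosome 18 from 61045150 to 61085067, and its FPKM was 93.6 and 89.2, a difference of -0.07 (interval -0.10 to -0.04). The alpha receptor stood at 102.1% of the beta receptor in the sham library and at 82.9% in the irradiated library.

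In order of level, the sham library ran from Ly6a through Pdgfra, Pdgfrb, F3, Anxa3, Cd34, Icam1, Cd55, and Pi16 to Dpp4. Neighbours there were apart by more than counting error except Pdgfra and Pdgfrb, whose Poisson intervals of FPKM, 94.4 to 96.7 and 92.1 to 95.1, overlapped. The intervals of Ly6a and Pdgfra were separated by less than the rounding of the deposited values. In the irradiated library Anxa3 stood above Pdgfra and F3, which shared 1 value, and the lowest 5 kept their order. Pi16 and Dpp4, which stood apart in the sham library, overlapped in the irradiated library, with Poisson intervals of 1.09 to 1.54 and 1.10 to 1.39.

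The sequences upstream of the start site are shown for the members with the largest differences, Cd55 and Icam1 (higher in the irradiated library) and Pi16 and Pdgfra (lower), so that their promoters can be set side by side. Each is the 250 bases before a RefSeq start (GRCm38.p6), read 5′ to 3′ on the gene's own strand, with matches to the motifs searched in capitals. For Cd55 that start is the one of the deposited gene, which lies inside a longer RefSeq span. Its window is therefore not upstream of the outermost RefSeq start.
Cd55, chr1:130462745-130462994, minus strand: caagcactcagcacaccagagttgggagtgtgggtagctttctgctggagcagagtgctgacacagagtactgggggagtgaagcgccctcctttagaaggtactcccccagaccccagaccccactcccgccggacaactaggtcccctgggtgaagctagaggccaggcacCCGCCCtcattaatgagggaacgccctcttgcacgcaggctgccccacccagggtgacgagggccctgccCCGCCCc
Icam1, chr9:21015690-21015939, plus strand: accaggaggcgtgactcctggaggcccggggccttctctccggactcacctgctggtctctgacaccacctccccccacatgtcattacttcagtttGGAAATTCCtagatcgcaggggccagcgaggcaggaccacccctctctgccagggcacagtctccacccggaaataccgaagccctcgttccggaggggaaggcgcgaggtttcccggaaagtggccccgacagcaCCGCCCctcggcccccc
Pi16, chr17:29318632-29318881, plus strand: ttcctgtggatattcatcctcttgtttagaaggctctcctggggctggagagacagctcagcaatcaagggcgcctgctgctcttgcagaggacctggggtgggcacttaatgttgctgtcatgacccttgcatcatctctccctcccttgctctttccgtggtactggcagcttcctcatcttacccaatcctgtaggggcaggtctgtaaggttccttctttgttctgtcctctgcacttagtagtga
Pdgfra, chr5:75152001-75152250, plus strand: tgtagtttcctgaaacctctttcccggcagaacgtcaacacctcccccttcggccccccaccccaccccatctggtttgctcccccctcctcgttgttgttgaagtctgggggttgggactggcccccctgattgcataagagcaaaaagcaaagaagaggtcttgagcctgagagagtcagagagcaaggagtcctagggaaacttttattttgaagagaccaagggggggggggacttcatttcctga

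Both strands were searched for the NF-kB consensus, its ICAM1-type variant GGAAATTCC, the TATA box TATAAA, the GC box GGGCGG, and the AP-1 motif TGANTCA. The NF-kB forms can overlap. The variant was chosen as an ICAM1-type site, so its match in the Icam1 window was no independent finding. The Icam1 window held GGAAATTCC starting 153 bases before the start, letters found in 0.286% of 32851 promoter windows of this length, and 1 GC box. The Cd55 window held 2 GC boxes, a motif present in 32.7% of windows. No match was found in the Pi16 or Pdgfra window, nor a match to the NF-kB consensus, which 3.90% of windows hold, in any of these 4. The TATA box and AP-1 motif, in 12.4% and 6.75% of windows, were absent from these 4 windows as well. CpG dinucleotides numbered 15 in the Icam1 window, 8 in Cd55, 4 in Pdgfra, and 2 in Pi16, where the median of all windows was 6. These are descriptions of the letters and say nothing of which factors bound.

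Other genes of the same stages were examined beside the members, and many were higher in the irradiated library. Among 10 further interstitial genes, 6 reached an FPKM of 1 and 5 of these had an interval above 0, with a median difference of 0.38. The largest was that of Sema3c, a secreted semaphorin, whose FPKM was 5.60 and 8.41 and whose difference was 0.58 (interval 0.47 to 0.71). Limch1, which binds actin, was the lowest at -0.27, and Cd248, the stromal receptor endosialin, had the highest level with 29.6 and 36.7. With the members included, 8 of 10 interstitial genes had an interval above 0 and 2 below, Pi16 and Limch1. Of these, Dpp4 passed the filter only through the irradiated library. Limch1, with an FPKM of 1.09 in the sham library and 0.886 in the irradiated library, passed only through the sham library. Each was thus kept by the library in which it was higher. Over all genes, 23.8% had an interval above 0 and 17.5% below.

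Among 10 further committed genes, 9 reached an FPKM of 1, and their median difference was 0.13, against 0.24 with no filter and 0.24 at a minimum FPKM of 5. Of these 9, 5 had an interval above 0, 0 below, and 4 covering 0. With the members included, 6 of 11 committed genes had an interval above 0 and 1 below, F3, where 23.8% and 17.5% of all genes did so. Col4a1, a basement membrane collagen chain, had both the largest difference, 0.56 (interval 0.54 to 0.58), and the highest level, with an FPKM of 148.0 and 218.2. Lpl, the lipase that frees fatty acids from lipoproteins, was the lowest at -0.03 (interval -0.06 to 0.0046). Pparg, the transcription factor that drives adipogenesis, had 4.59 and 4.69, and Fabp4, one of its targets, had 96.9 in both libraries. Cd36 of the same list had 117.7 and 160.8, a difference of 0.45 (interval 0.42 to 0.48). Pparg, Fabp4, and Cd36 were named after their values were seen.

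Side by side, the interstitial genes had a median difference of 0.38 (10 genes, range of the median -0.27 to 0.58) and the committed genes of 0.13 (11 genes, -0.03 to 0.56). The medians were 0.25 apart, but the range of the committed median lay inside that of the interstitial median, and the mean differences, 0.277 and 0.223, were only 0.0543 apart. With no filter on low values the medians were 0.095 apart, and at a minimum FPKM of 5 they were 0.16 apart. The stages were therefore not apart beyond the spread among the chosen genes. With 1 library per condition, that spread can neither show nor exclude a difference between the stages. Genes that accompany F3 in the regulatory cells were also mixed: Fmo2 was higher by 0.75 (interval 0.55 to 1.03), whereas Gdf10, with the highest level of that list, was lower, at -0.27 (interval -0.43 to -0.11). A list of 8 general mesenchymal genes had a median of 0.14, from Nt5e at -0.14 to Thy1 at 0.40, and Vim, which had the highest level, was at 0.27.

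**Figure D2:**
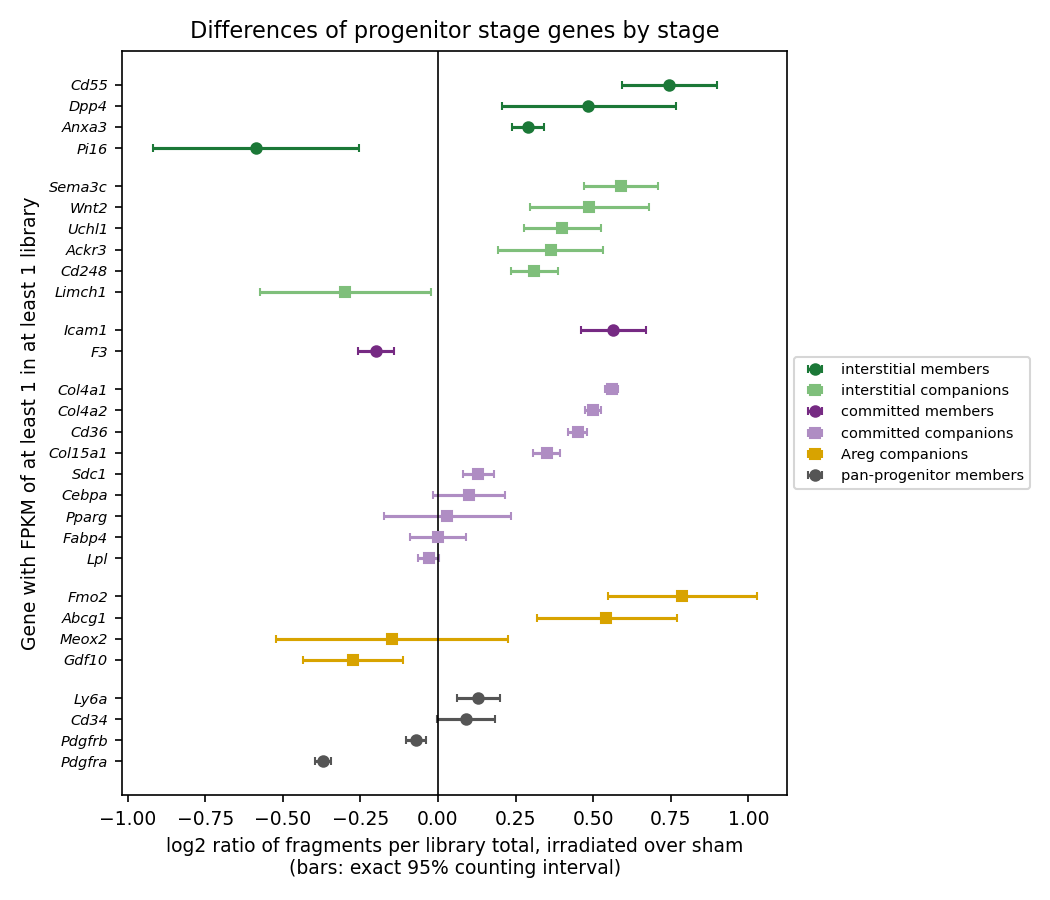
Log2 ratio of fragments per library total, irradiated over sham, of the members (circles) and of further genes of each stage (squares) that reached an FPKM of 1 in either library. Bars are exact 95% counting intervals. The intervals of Pi16 and Limch1 lie below 0 among the interstitial genes and that of F3 among the committed genes, while Cd55 lies highest of the members at 0.75 without the added 0.1.

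Levels relative to Pdgfra in the same library do not depend on library scaling. Cd55 stood at 4.20% of Pdgfra in the sham library and 9.09% in the irradiated library. Icam1 stood at 9.12% and 17.4%, and Anxa3 at 71.7% and 113.3%. Pi16 had 2.03% and 1.75%, a log2 change of -0.21 whose interval, -0.54 to 0.11, covered 0. Since Pdgfra itself was lower in the irradiated library, these ratios depend on the gene they are set against. The log2 changes of Ly6a, Pdgfrb, and Cd34 relative to Pdgfra, 0.50, 0.30, and 0.46, became -0.10, -0.30, and -0.14 relative to the median FPKM of the mesenchymal list. That median lies midway between Eng and Cd44, whose own differences were 0.07 and 0.32, so the values against it depend on those genes. The log2 changes of Cd55, Icam1, Dpp4, and Anxa3 stayed above 0 and that of Pi16 below 0 against all 3 references. Against the mesenchymal median, however, Dpp4 was at 0.25 and Anxa3 at only 0.059. No interval was computed for that reference, so these signs carry no measure of error.

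**Figure D3:**
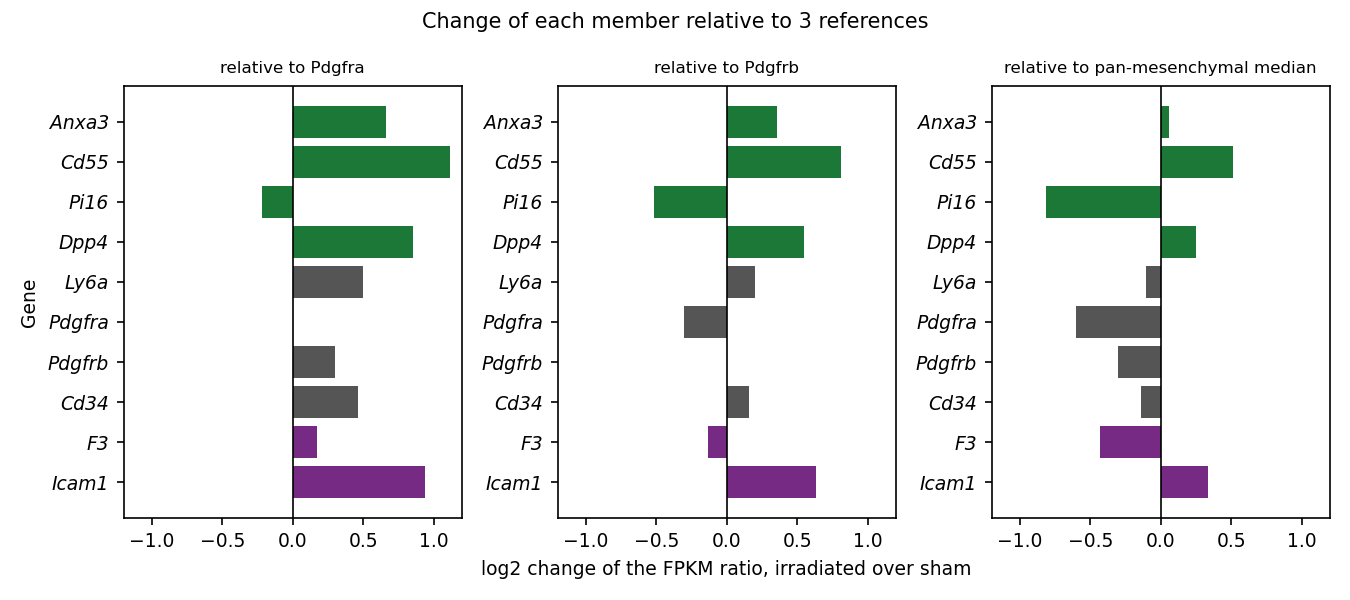
Log2 change, irradiated over sham, of the FPKM ratio of each member to Pdgfra, to Pdgfrb, and to the median FPKM of 8 mesenchymal genes, with no error shown. Green marks interstitial, grey shared, and purple committed markers. Cd55, Dpp4, Anxa3, and Icam1 lie above 0 and Pi16 below 0 in all 3 panels, Anxa3 by only 0.059 against the mesenchymal median.

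Partners of the members were then examined. All 4 PDGF ligand genes, whose products bind the PDGF receptors, were higher in the irradiated library with an interval above 0. Of all genes, 23.8% had such an interval. The differences of the ligand genes ran from 0.20 for Pdgfc to 0.58 for Pdgfd, and Pdgfa had the highest level, with an FPKM of 12.7 and 15.9. Of the 9 genes examined beside Icam1, the NF-kB subunits and inhibitors and the related adhesion genes Vcam1 and Icam2, the median difference was 0.00. Nfkbie, an NF-kB inhibitor, was the lowest at -0.26 (interval -0.44 to -0.09) and Tnfaip3, a feedback inhibitor, the highest at 0.12 (interval 0.01 to 0.23). Nfkbia had the highest level in the sham library, with 54.1 there and 49.8 in the irradiated library, and Vcam1 had 53.7 in both.

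Around tissue factor, 6 coagulation partners were measured. Thbd encodes thrombomodulin, which turns thrombin towards anticoagulation, and had the largest difference, 0.84 (interval 0.78 to 0.91), with an FPKM of 23.8 and 42.7. Tfpi, the inhibitor of the tissue factor pathway, had the highest level in the sham library and the lowest difference, -0.13 (interval -0.19 to -0.07). Of the 7 complement regulators beside Cd55, 3 reached an FPKM of 1. Cr1l, with the highest level of these in the sham library, was lower, at -0.13 (interval -0.21 to -0.05).

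Several members are also made by other cell types, and markers of these moved between the libraries. The counts below stand beside 23.8% of all genes with an interval above 0 and 17.5% with an interval below 0. Of 9 mesothelial markers, 8 had an interval above 0 and 1 below, with a median of 1.16 and sums of FPKM of 35.4 and 51.1. All 9 passed the filter on low values, but 5 of them, Msln among these, only through the irradiated library. Msln was highest in difference, at 2.18, and Wt1, with the highest level, was at -0.13. Of 9 macrophage markers, 7 had an interval above 0 and 1 below, with a median of 0.44, from Lyz2 at -0.11 to C1qa at 0.80, and sums of 584.9 and 623.5. Of 8 mural markers, of the cells around vessels that also make PDGFRB, 7 had an interval above 0 and none below, with a median of 0.24, from Myh11 at 0.07 to Cspg4 at 0.70, and sums of 585.9 and 692.2. Acta2 was the most abundant of these. Cspg4 passed the filter only through the irradiated library. Of 9 endothelial markers, 4 had an interval above 0 and none below, with a median of 0.16, from Cldn5 at -0.09 to Emcn at 0.33, and sums of 47.7 and 51.8. Cdh5 was the most abundant endothelial marker. Of the 5 T cell markers in the table, only Cd3g reached an FPKM of 1, at 1.12 and 0.62. Their part in the differences of the members was not tested.

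**Figure D4:**
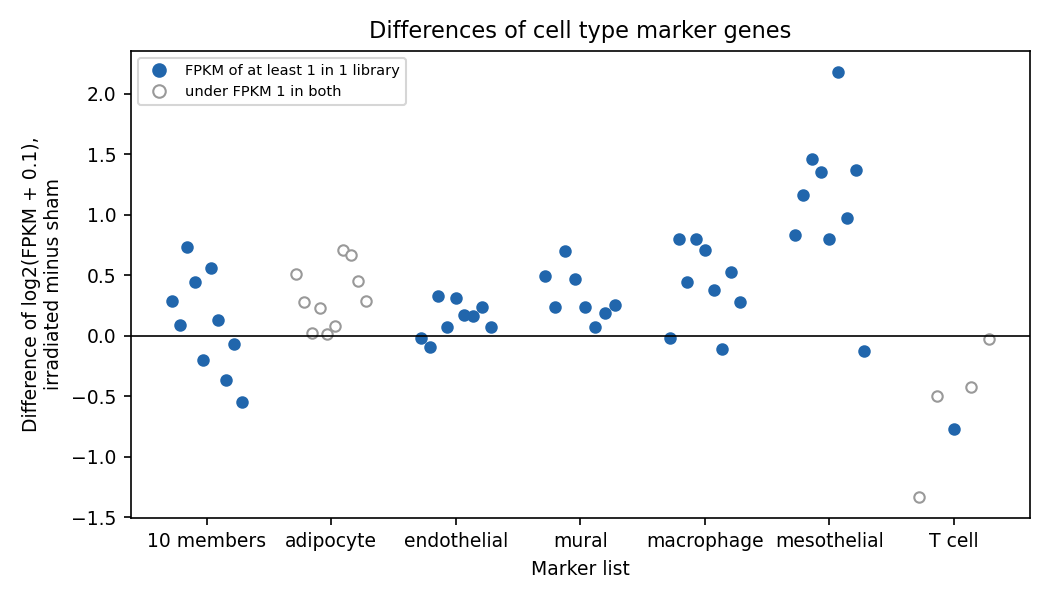
Difference of log2(FPKM + 0.1), irradiated minus sham, of the 10 members and of each cell type marker. Filled points reached an FPKM of 1 in either library, and open points are under 1 in both. The mesothelial markers lie highest, from -0.13 to 2.18, and the 10 members lie between -0.55 and 0.73.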

How the data were processed

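The authors deposited 1 table of log2(FPKM + 0.1), given to 2 decimals, for 2 libraries of polyadenylated RNA made with a stranded preparation. The genome build is mm10 per the submitters' processing notes, and the sources used here name no aligner and no counting tool. Of the 10 members, 9 had a start or end within 1000 bases of that in the RefSeq annotation of GRCm38.p6, and the exception, Cd55, lay inside its longer RefSeq span. The paper given with the series does not describe this experiment.

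The logarithm was undone and the added 0.1 subtracted to give FPKM. Library totals were found as those for which FPKM times length times total came closest to whole fragments, over genes with a small rounding error. As a check, genes with 1 to 20 fragments and a rounding error under 0.12 were examined. All 3602 and 3608 such genes came out whole within 0.12. Fragments of abundant genes are approximate because of the rounding. The steps were tested on simulated data. Genes that reached an FPKM of 1 in either library were kept. Levels carry exact 95% Poisson intervals, and the interval of a change in a ratio between genes is a normal approximation from the fragments. A range beside a median spans the ordered values that bound it at 95% by the binomial distribution, or all values of lists under 6 genes. All intervals cover counting error only. PCR copies are not independent molecules, so the intervals are too narrow to the extent that such copies were counted.

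The members and lists were chosen with earlier results of these data known. From each list, the genes with the largest rise, the largest fall, and the highest FPKM were named, and the promoters were chosen by the size of the members' differences. One gene that this rule covers is not reported here. Proteins were not analysed here. Shared words were counted in the GENCODE M21 transcripts, on the same strand. Computations ran in Python 3.11.15 with pandas 2.3.3, numpy 2.4.6, and SciPy 1.17.1, and matplotlib 3.10.9 drew the figures.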

Additional observations from a re-analysis of the deposited data

How the results depend on the processing

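No paired analysis was possible because there was only 1 library for each condition, and leaving out a replicate was not an option. With a threshold of 0.5 in place of 1, the count of members was 2 higher and 1 lower in place of 0 and 0. Of 50 values of the members under another pseudocount or no pseudocount, centring, other scaling, or a gene length correction, all stayed inside their counting interval, the largest shifts being those of Dpp4 and Pi16 with log2(FPKM + 1). The 63 alternatives of the stage medians stayed inside their ranges too, but for lists under 6 genes these span all values and are hard to leave. The median of the genes that accompany F3 went from 0.185 to -0.27 at a minimum FPKM of 5, where 1 gene was left. The 5 alternatives of the difference between the stages lay between 0.0543 and 0.25, inside a wide range of -0.83 to 0.61. Of 17 changes of ratio under another reference than Pdgfra, 11 moved beyond counting error and 5 changed sign, by the construction of the ratio: Ly6a at -0.10, Pdgfrb at -0.30, and Cd34 at -0.14 against the mesenchymal median, and F3 at -0.43 against it and -0.13 against Pdgfrb. Depth limits Pi16 and Dpp4, with 135 to 277 fragments per library.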

Other observations

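The wider gene families of the members were examined as well. There were 10 other annexins, which like Anxa3 encode proteins that bind membranes in the presence of calcium. Of these, 8 reached an FPKM of 1, with a median difference of 0.28. A counting interval above 0 was found for 5 of the 8, and for 23.8% of all genes. Anxa8 had the largest, 1.68 (interval 1.27 to 2.55), with an FPKM of 0.474 and 1.74 from 27 and 114 fragments, and reached the filter through the irradiated library alone. Anxa6 was the lowest at -0.03, and Anxa1 had the highest level, with 491.0 and 613.0. Anxa3, at 0.29, lay at about the median of its family.

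Of 10 other Ly6 genes, 2 reached an FPKM of 1. Ly6e, with 101.7 and 103.9, stood beside Ly6a in level, and Ly6c1 differed by 0.33 (interval 0.06 to 0.61). Among relatives of Dpp4, the lysosomal peptidase gene Dpp7 was higher by 0.45 (interval 0.27 to 0.64), Dpp8 had the highest level with 18.8 and 19.2, and Fap, the fibroblast activation protein gene, was the lowest at -0.14 with an interval of -0.31 to 0.03. Among sialomucins related to Cd34, Podxl was higher by 0.62 (interval 0.49 to 0.78), and Cd164, the most abundant, was the lowest at -0.06. Of the genes of the CAP family beside Pi16, Glipr1 was highest in difference, at 0.27 (interval 0.02 to 0.53), and Glipr2, the most abundant, was lowest, at -0.04 (interval -0.10 to 0.02), so none of the 4 that reached an FPKM of 1 had a difference as low as the -0.55 of Pi16.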
